A study of Homo sapiens with 8 samples.

Results

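The Wnt ligands, receptors and antagonists measured here are 56 genes out of 60595 listed in each deposited table. They were chosen by gene symbol: the numbered WNT, FZD, DKK and SFRP families and LGR4 to LGR6, with LRP5, LRP6, AXIN1, AXIN2, RNF43, ZNRF3, CTNNB1, LEF1, TCF7, TCF7L1, TCF7L2, RSPO1 to RSPO3, PORCN and WLS. RNA came from SUM159, an established human triple-negative breast cancer cell line, grown with insulin and hydrocortisone and infected with lentivirus. The labels give 8 libraries in 4 groups of 2, crossing shCon, a control hairpin, or shFoxO1, a hairpin targeting FOXO1, with the solvent DMSO or 10 uM olaparib, an inhibitor of PARP1 and PARP2, for 3 days. Levels were analysed for shCon in DMSO, shCon in olaparib and shFoxO1 in olaparib, and shFoxO1 in DMSO was not analysed here. The labels do not say how many hairpins were used or whether the infected cells were a clone, and every group carried a hairpin vector.

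Wnt proteins are secreted lipid-modified ligands that bind Frizzled receptors, alone or together with the co-receptors LRP5 and LRP6. In the beta-catenin branch, binding halts the destruction complex built on axin, and beta-catenin then enters the nucleus and works with TCF/LEF factors. Other branches act through the same Frizzled receptors on cell polarity and calcium without beta-catenin, and WNT5A is a well studied ligand of these branches, also in breast cancer cells.

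Each table gives 1 value per gene and group in FPKM, fragments scaled to transcript length and library size, so no SD or n of libraries can be given, the depth behind the values is unknown, and no spread between replicates can be shown. Calls use a q threshold of 0.05 on the authors' deposited table, and the direction is that of the FPKM ratio. The labels do not tell separate cultures from repeat libraries, and the spread behind the q-values may therefore be technical. The group shCon in olaparib stands in both tables, where its values differ by a scale of 1.017, and an error in that group would push the ratios of both comparisons in opposite directions. FOXO1 itself was at 54.6 FPKM in DMSO and 87.7 FPKM in olaparib for shCon cells (not called, q = 0.0966 by the authors' deposited table), and in the second table at 89.2 FPKM in shCon cells and 17.5 FPKM in shFoxO1 cells, 5.11-fold lower (q = 0.000244 by the authors' deposited table). Of the markers of mesenchymal breast cancer cells, none of 8 was at 0. They summed to 3389, 3281 and 2502 FPKM in DMSO, olaparib and shFoxO1 with olaparib scaled to the first table. Most of this was VIM, at 2456, 2446 and 1627 FPKM in the same order. With olaparib SNAI2 was called higher and CDH2 lower. With shFoxO1 CDH2 and FN1 were called higher, and AXL, CAV1, SNAI2 and VIM lower. The luminal markers CDH1 and PGR were at 0 in all of these groups. The 8 luminal markers summed to 483, 445 and 217 FPKM. Most of this came from KRT8, at 255, 326 and 92.1 FPKM, and KRT18, at 213, 110 and 116 FPKM in the same order. GATA3 was at 15, 8.68 and 8.58 FPKM. KRT18 and GATA3 were called lower with olaparib, and KRT8 was called lower with shFoxO1. The leukocyte markers LYZ, MS4A1 and CD3D were at 0 throughout, and the list of 6 summed to 20.4, 15.4 and 39.7 FPKM. Most of this was CD68, at 18.2, 14.9 and 39.3 FPKM, not called in either table (q = 0.821 and 0.126 by the authors' deposited table). In DMSO, PTPRC was at 1.34 FPKM and CD14 at 0.865 FPKM. The endothelial list of 4 summed to 5.34, 0.475 and 4.34 FPKM with KDR called lower in the first table and KDR and PECAM1 called higher in the second, while VWF and CDH5 stayed at or below 0.0198 FPKM, and the part of these lists in the results was not tested.

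Of the 56 members, 28 were tested by the authors in at least 1 table. The other 28 were not tested by the authors in either table: 11 were listed at 0 in every group (WNT1, WNT2, WNT6, WNT7A, WNT8A, WNT9B, FZD10, RSPO1, RSPO3, DKK4 and SFRP4), and the other 17 reached at most 0.641 FPKM, the value of TCF7 in DMSO. These 17 were WNT2B, WNT3A, WNT4, WNT5B, WNT7B, WNT8B, WNT9A, WNT10A, WNT16, FZD9, LGR5, LGR6, TCF7, DKK2, SFRP1, SFRP2 and SFRP5. A gene could enter the test through the level of either group, so counts over tested members leave out low genes and do not stand for the whole family.

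With olaparib in shCon cells, the Frizzled receptors FZD1, FZD2 and FZD8, the R-spondin RSPO2 and the feedback scaffold AXIN2 rose at least 2-fold, while the ligands WNT10B and WNT11 fell by more than 2-fold. Of 27 tested members, 8 were called higher and 6 lower, or 29.6% and 22.2%, against 15.6% and 23.1% of the 14841 genes tested by the authors. At least 2-fold higher were 5 of them and at least 2-fold lower 2, where 8.53% and 9.74% of all tested genes were, and with shFoxO1 these counts were 2 and 5 of 28, where 11.8% of tested genes lay in each direction. The median log2 ratio of the tested members with olaparib was -0.11, beside -0.07 for all tested genes. With shFoxO1 under olaparib, FZD1, FZD2, FZD8, AXIN2 and the secreted protein gene DKK3 fell at least 2-fold, and FZD4 and WNT11 rose by more than 2-fold. There 4 of 28 tested members were called higher and 7 lower, or 14.3% and 25%, against 22.6% and 19.8% of 14660 tested genes. In that comparison 39.3% of the tested members were called in either direction, close to the 42.4% of all tested genes, and the median log2 ratios were -0.08 and 0.01.

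**Figure D1:**
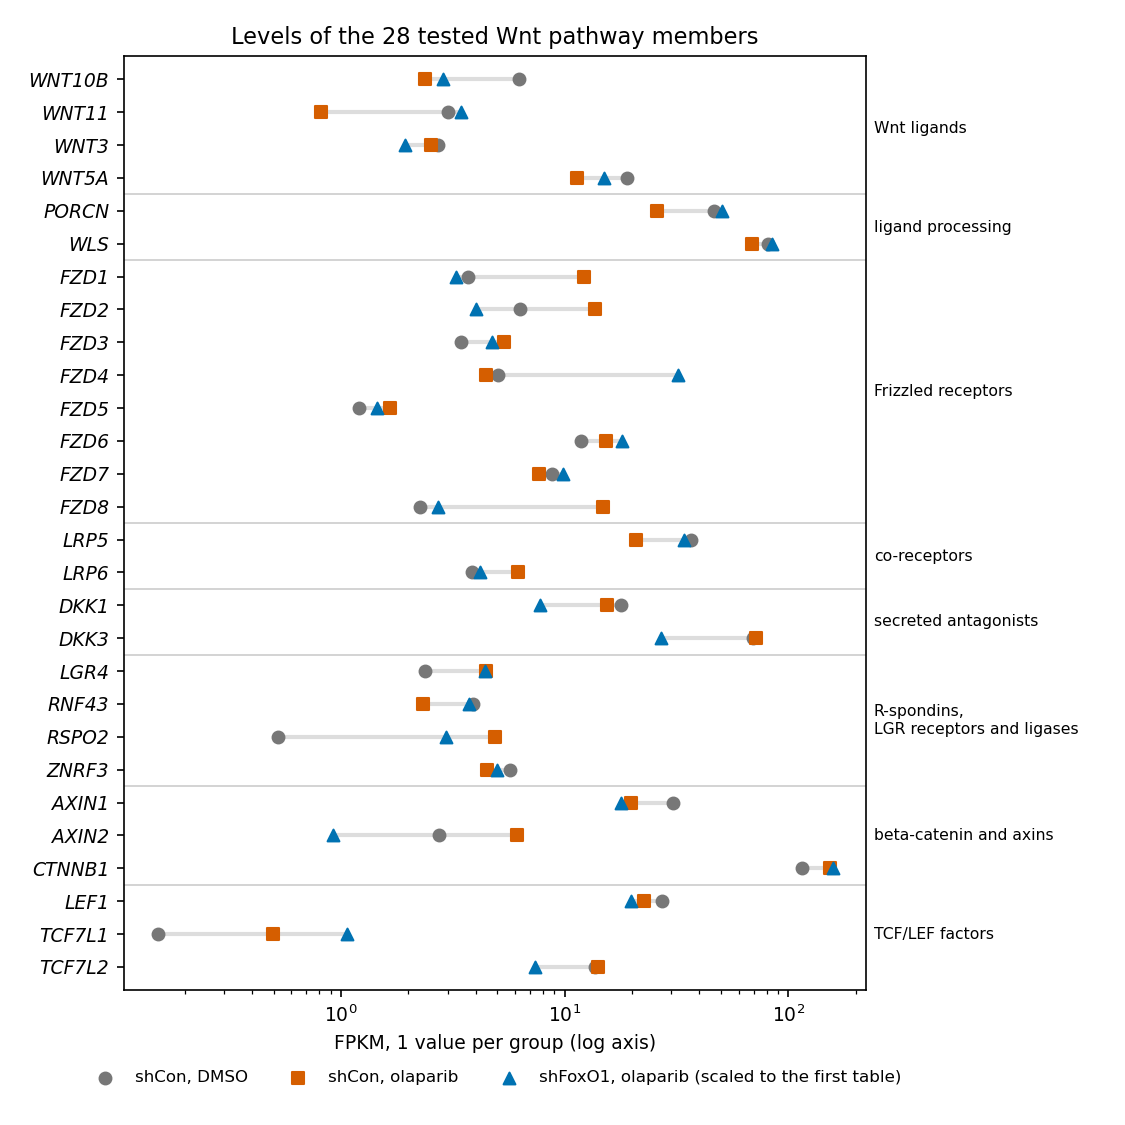
FPKM of the 28 tested members (log axis) in shCon cells in DMSO, shCon cells in olaparib and shFoxO1 cells in olaparib, 1 value per group and no error bars, with the shFoxO1 values divided by 1.017 to match the first table. FZD8 lies at 2.25 and 2.71 FPKM outside shCon olaparib and at 14.9 FPKM in it, and FZD4 stands out at 32.1 FPKM in shFoxO1 cells.

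Among the ligands, 4 of 19 were tested and WNT5A made up most of the summed ligand level in every group, 59.2% in DMSO, 63.1% in olaparib and 61.5% in olaparib-treated shFoxO1 cells. The sum of all 19 ligands was 32 FPKM in DMSO, 18 FPKM in olaparib and 24.4 FPKM in shFoxO1 cells scaled to the first table. WNT5A (ENSG00000114251) was at 18.9 FPKM in DMSO and 11.3 FPKM in olaparib, a log2 ratio of -0.74 (q = 0.00857 by the authors' deposited table). In the second table it was at 11.5 FPKM in shCon cells and 15.3 FPKM in shFoxO1 cells, which was not called (q = 0.208 by the authors' deposited table). The antisense gene WNT5A-AS1, which overlaps it, was at 2.84 FPKM in DMSO and 1.76 FPKM in olaparib, and at 1.79 and 1.05 FPKM in shCon and shFoxO1 cells. It was not called in either comparison (q = 0.787 and 0.744 by the authors' deposited table), and its part in the WNT5A values was not tested.

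WNT10B, a ligand of the beta-catenin branch known for mammary growth in mice, was at 6.28 FPKM in DMSO and 2.39 FPKM in olaparib, 2.63-fold lower (q = 0.000284 by the authors' deposited table). It was at 2.43 FPKM in shCon cells and 2.93 FPKM in shFoxO1 cells, a difference that was not called. WNT11, a ligand of the polarity branch, was at 3.02 FPKM in DMSO and 0.816 FPKM in olaparib, 3.70-fold lower (q = 0.0316 by the authors' deposited table). In the second table it was at 0.830 FPKM in shCon cells and 3.49 FPKM in shFoxO1 cells, 4.20-fold higher (q = 0.0245 by the authors' deposited table). With a pseudocount of 1 FPKM the WNT11 log2 ratios of -1.89 and 2.07 became -1.15 and 1.29. Both WNT11 calls are lost when every listed gene enters the adjustment (q = 0.129 and 0.101), with untested genes entered at the largest possible p-value. WNT3, another beta-catenin ligand, was not called in either table, at 2.72 and 2.52 FPKM in DMSO and olaparib and at 2.56 and 1.97 FPKM in shCon and shFoxO1 cells.

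Every Wnt protein needs the acyltransferase PORCN, which attaches its lipid, and the carrier WLS, which takes it to the cell surface. PORCN (ENSG00000102312, chromosome X, 48508992 to 48520814, build GRCh38.p14) was at 46.4 FPKM in DMSO and 25.8 FPKM in olaparib, 1.80-fold lower (q = 0.000284 by the authors' deposited table). In the second table it was at 26.2 FPKM in shCon cells and 51.2 FPKM in shFoxO1 cells, 1.95-fold higher (q = 0.000244 by the authors' deposited table). WLS was not called, at 81.4 and 68.8 FPKM in DMSO and olaparib and at 70 and 86.2 FPKM in shCon and shFoxO1 cells, and its first log2 ratio of -0.24 turned to 0.13 after quantile normalization.

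The promoters of PORCN, LRP5, FZD1 and FZD8 are printed below because these genes were called in both tables at 10 FPKM or more in a group, and that of DKK1, chosen after the search, because it holds CTTTGAA. FZD2 also met the rule on calls and level and is named only. Each is the 250 bases before the RefSeq start in GRCh38.p14, read along the gene, with capitals for the motifs searched on either strand: FOXO (GTAAACA), TCF/LEF (CTTTGAT and CTTTGAA), the TATA box (TATAAA) and the CCAAT box (CCAAT, read ATTGG on the other strand). TATA and CCAAT were added after the windows were read. No searched motifs overlapped in the windows printed. Of 35116 RefSeq promoters of this length, 2.98% hold GTAAACA, 2.26% CTTTGAT, 3.8% CTTTGAA, 10.7% TATAAA and 32% CCAAT. Of the 56 members 39 matched the promoter table, with 50 promoters, of which 2 hold GTAAACA (TCF7 and WNT5B), none CTTTGAT and 1 CTTTGAA. Among the 23 promoters of the 17 tested members that matched, these 3 motifs are found once, in DKK1, which says only that these letters are absent from the other windows. The median GC content was 64.4% over the 23 and 58% over all promoters. The PORCN promoter nearest the start of the gene lies at chrX:48508742-48508991 on the plus strand, with an inverted CCAAT box 62 to 58 bases before the start.
PORCN: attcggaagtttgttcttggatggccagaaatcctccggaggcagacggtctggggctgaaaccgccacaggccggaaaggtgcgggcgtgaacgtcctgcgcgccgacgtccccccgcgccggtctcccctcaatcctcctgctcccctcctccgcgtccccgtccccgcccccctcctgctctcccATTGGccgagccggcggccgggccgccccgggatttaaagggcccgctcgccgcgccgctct

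Of the 8 tested Frizzled receptors, 3 were called higher and 0 lower with olaparib, and 1 was called higher and 3 lower with shFoxO1. Over all tested genes the shares called higher and lower were 15.6% and 23.1% with olaparib and 22.6% and 19.8% with shFoxO1. Summed over all FZD genes the level was 43.1 FPKM in DMSO, 75.6 FPKM in olaparib and 76.5 FPKM in olaparib-treated shFoxO1 cells scaled to the first table, but different genes carried it. FZD1, FZD2 and FZD8 together with FZD6 made up most of the sum in shCon olaparib, with shares of 16.2%, 18%, 19.7% and 20.3%, and FZD4 alone held 41.9% in shFoxO1 cells. Without FZD4 the sums were 38, 71.2 and 44.4 FPKM.

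**Figure D2:**
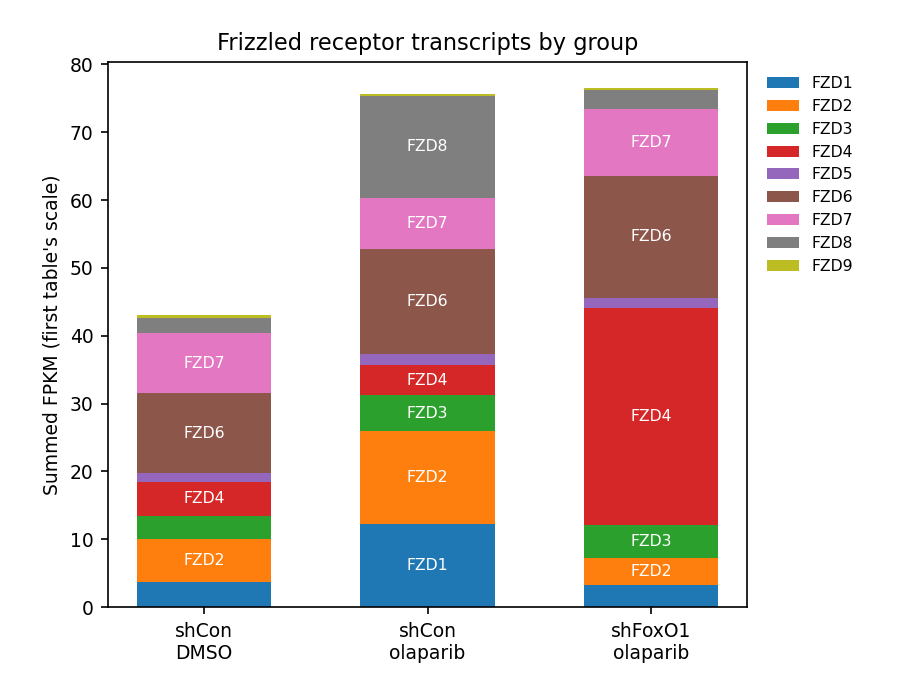
Summed FPKM of the FZD genes in each group scaled to the first table, 1 value per gene and group, each colour a gene. FZD1, FZD2 and FZD8 fill more of the bar in shCon olaparib than in the other bars, and FZD4 fills 41.9% of the bar for shFoxO1.

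FZD8 (ENSG00000177283, chromosome 10, 35638247 to 35642296) had the largest Frizzled rise with olaparib. It was at 2.25 FPKM in DMSO and 14.9 FPKM in olaparib, 6.63-fold higher (q = 0.000284 by the authors' deposited table). In the second table it was at 15.1 FPKM in shCon cells and 2.76 FPKM in shFoxO1 cells, 5.49-fold lower (q = 0.000244 by the authors' deposited table). On the first table's scale its level in shFoxO1 cells was 2.71 FPKM, beside 2.25 FPKM in DMSO, a pair that crosses tables and has no test. FZD1 (ENSG00000157240, chromosome 7, 91264433 to 91271326) was at 3.71 FPKM in DMSO and 12.3 FPKM in olaparib, 3.30-fold higher (q = 0.000284 by the authors' deposited table). It was at 12.5 FPKM in shCon cells and 3.32 FPKM in shFoxO1 cells, 3.76-fold lower (q = 0.000244 by the authors' deposited table). FZD2 (ENSG00000180340, chromosome 17, 44557484 to 44561262), a close relative of FZD1, was at 6.32 FPKM in DMSO and 13.6 FPKM in olaparib, 2.16-fold higher (q = 0.000284 by the authors' deposited table). It was at 13.9 FPKM in shCon cells and 4.10 FPKM in shFoxO1 cells, 3.38-fold lower (q = 0.000244 by the authors' deposited table). For these 3 receptors the shCon olaparib level is the highest of the 3 groups, and scaled to the first table FZD1 and FZD2 in shFoxO1 cells were at 3.27 and 4.03 FPKM. None of the 3 shares its listed region with another gene that the authors tested.

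The promoters of FZD1 (chr7:91264183-91264432, plus strand) and FZD8 (chr10:35642297-35642546, minus strand) have the same GC content, 65.2%, and each holds an inverted CCAAT box, 91 to 87 bases before the start in FZD1 and 70 to 66 in FZD8. FZD8 also holds a TATA box 29 to 24 bases before the start, and its window lies within the RefSeq locus LOC124902528. Neither window holds the FOXO or TCF/LEF letters.
FZD1: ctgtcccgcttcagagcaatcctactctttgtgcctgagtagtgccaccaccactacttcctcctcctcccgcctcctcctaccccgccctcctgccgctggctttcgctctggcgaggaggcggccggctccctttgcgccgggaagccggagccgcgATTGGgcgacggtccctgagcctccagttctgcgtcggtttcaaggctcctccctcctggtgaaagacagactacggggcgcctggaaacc
FZD8: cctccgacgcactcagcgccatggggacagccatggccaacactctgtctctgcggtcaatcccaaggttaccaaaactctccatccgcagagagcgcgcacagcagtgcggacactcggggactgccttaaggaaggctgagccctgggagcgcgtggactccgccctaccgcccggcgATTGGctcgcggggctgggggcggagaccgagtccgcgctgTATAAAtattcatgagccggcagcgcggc

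FZD4 (ENSG00000174804, chromosome 11, 86945679 to 86955395), the receptor of norrin as well as of Wnt proteins, was called in the second table only. It was at 5.02 FPKM in DMSO and 4.43 FPKM in olaparib, which was not called (q = 0.598 by the authors' deposited table). With shFoxO1 it rose from 4.51 to 32.6 FPKM, 7.23-fold (q = 0.000244 by the authors' deposited table), the largest rise among the tested members in that table. In RefSeq the protease gene PRSS23 covers 7232 bases, or 74.4%, of FZD4, and the authors list both in the same region. Another tested gene of that region, AP001528.2, was at 0.0511 FPKM in shCon cells and 2.29 FPKM in shFoxO1 cells. It was not called (q = 0.326 by the authors' deposited table), and its overlap with FZD4 was not determined. PRSS23 was at 50.4 FPKM in DMSO, 0.915 FPKM in olaparib, and, in the second table, 0.931 FPKM in shCon cells and 303 FPKM in shFoxO1 cells. PRSS23 fell with olaparib, with FZD4 at 5.02 and 4.43 FPKM, and both PRSS23 and FZD4 rose in shFoxO1 cells. Libraries were directional per the labels' protocols, but whether the counting used strand is not given in the sources used here. The part of PRSS23 or AP001528.2 reads in the FZD4 value was not tested.

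**Figure D3:**
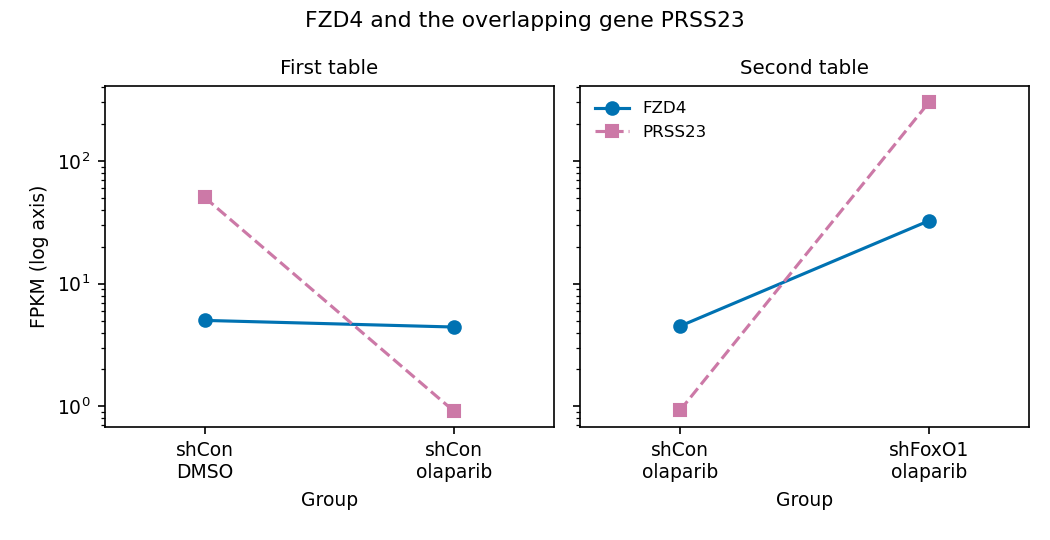
FPKM of FZD4 and of PRSS23, which overlaps it, in each deposited table on a log axis, 1 value per group, the lines joining values of a gene within a table. From DMSO to olaparib PRSS23 goes from 50.4 to 0.915 FPKM with FZD4 at 5.02 and 4.43 FPKM, and in shFoxO1 cells both are higher.

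The other Frizzled genes were not called in either table. FZD6, the most abundant Frizzled transcript in DMSO, was at 11.8 and 15.4 FPKM in DMSO and olaparib (q = 0.0575 by the authors' deposited table), then 15.7 and 18.3 FPKM in the second table. FZD7, of the same subfamily as FZD1 and FZD2, was at 8.82 and 7.65 FPKM in the first table and at 7.78 and 10 FPKM in the second (q = 0.0764 by the authors' deposited table). FZD3 was at 3.45 and 5.33 FPKM and then at 5.43 and 4.84 FPKM. FZD5, of the same subfamily as FZD8, was at 1.21 and 1.66 FPKM and then at 1.69 and 1.48 FPKM, and its second log2 ratio of -0.19 turned to 0.15 after quantile normalization. These values do not show that the uncalled receptors did not change, since no interval can be given.

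The co-receptors LRP5 and LRP6 were called in opposite directions in each table. LRP5 (ENSG00000162337, chromosome 11, 68298412 to 68449275) was at 36.6 FPKM in DMSO and 20.9 FPKM in olaparib, 1.75-fold lower (q = 0.000284 by the authors' deposited table). It was at 21.2 FPKM in shCon cells and 34.9 FPKM in shFoxO1 cells, 1.65-fold higher (q = 0.00503 by the authors' deposited table). LRP6 was at 3.84 FPKM in DMSO and 6.20 FPKM in olaparib, 1.61-fold higher (q = 0.0111 by the authors' deposited table). It was at 6.31 FPKM in shCon cells and 4.27 FPKM in shFoxO1 cells, 1.48-fold lower (q = 0.0429 by the authors' deposited table), a call lost when every listed gene enters the adjustment (q = 0.177). LRP5 thus made up 90.5% of the summed co-receptor level in DMSO, 77.1% in olaparib and 89.1% in shFoxO1 cells. The LRP5 promoter (chr11:68312341-68312590, plus strand) is 87.2% G and C, above 99.9% of RefSeq promoters, and holds none of the searched motifs; it lies inside the longer extent that RefSeq gives the gene.
LRP5: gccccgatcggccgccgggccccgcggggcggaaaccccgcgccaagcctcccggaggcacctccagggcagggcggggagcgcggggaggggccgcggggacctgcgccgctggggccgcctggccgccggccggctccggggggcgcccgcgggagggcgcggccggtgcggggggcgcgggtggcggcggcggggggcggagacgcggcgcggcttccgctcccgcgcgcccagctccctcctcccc

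**Figure D4:**
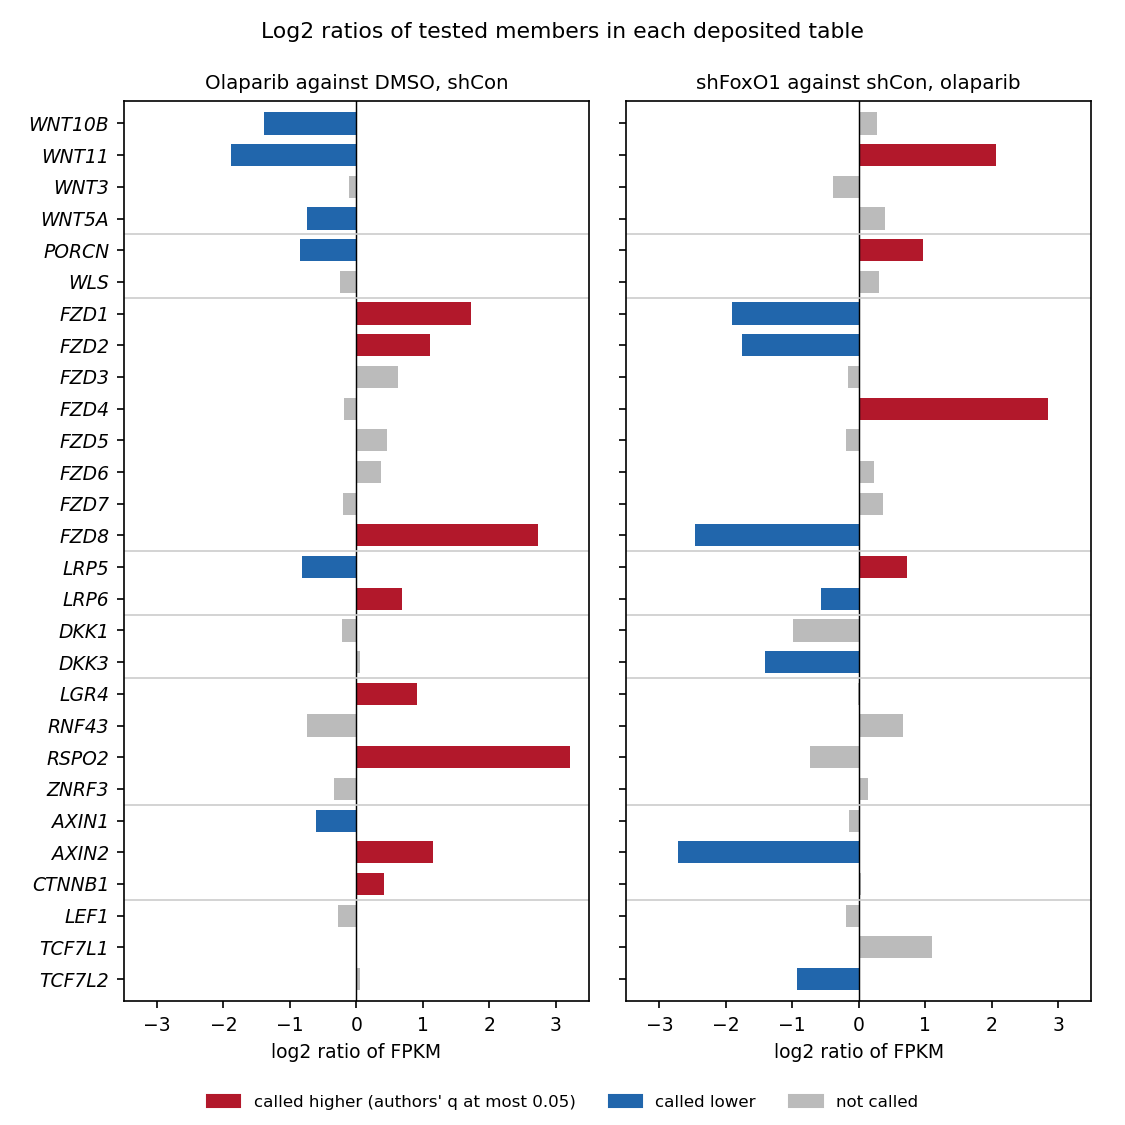
Log2 ratios of FPKM for the tested members in each deposited table, ordered by role, red bars for members called higher, blue for called lower and grey for not called, and no error bars because each group has 1 value. In the olaparib table RSPO2, at 3.22, and FZD8, at 2.73, reach farthest to the right, and in the shFoxO1 table AXIN2, at -2.72, reaches farthest to the left and FZD4, at 2.85, farthest to the right; the tables share the shCon olaparib group.

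Of the secreted antagonists, the SFRP genes and DKK2 and DKK4 were not tested, and DKK1 and DKK3 were. DKK1 blocks LRP5 and LRP6, while DKK3 is a divergent relative that does not act on them in the same way. DKK3 (ENSG00000050165, chromosome 11, 11963036 to 12009745) was the more abundant and was at 69.2 FPKM in DMSO and 71.7 FPKM in olaparib, not called. It fell from 72.9 FPKM in shCon cells to 27.5 FPKM in shFoxO1 cells, 2.65-fold (q = 0.000244 by the authors' deposited table). DKK1 was at 18 and 15.4 FPKM in the first table and at 15.7 and 7.87 FPKM in the second, a log2 ratio of -0.99 that was not called (q = 0.066 by the authors' deposited table). The genes PRKG1 and CSTF2T are listed in the same region as DKK1 without overlapping it in RefSeq, and fell from 4.08 to 0.446 FPKM and from 28.5 to 13.3 FPKM in shFoxO1 cells. With olaparib both rose, PRKG1 from 0.295 to 4 FPKM and CSTF2T from 13.4 to 28 FPKM (q = 0.00932 and 0.000284 by the authors' deposited table), where DKK1 was not called. The DKK1 promoter (chr10:52314031-52314280, plus strand) holds CTTTGAA 95 to 89 bases and a TATA box 30 to 25 bases before the start. DKK1 is known as a target of beta-catenin, and the match is no proof of a site.
DKK1: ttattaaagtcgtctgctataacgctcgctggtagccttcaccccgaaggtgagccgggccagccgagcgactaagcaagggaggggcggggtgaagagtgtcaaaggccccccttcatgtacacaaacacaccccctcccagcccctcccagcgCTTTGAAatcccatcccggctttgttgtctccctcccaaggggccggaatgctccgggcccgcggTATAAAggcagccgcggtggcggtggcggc

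R-spondins, through LGR receptors, keep the ligases RNF43 and ZNRF3 from removing Frizzled receptors from the surface. RSPO2 was at 0.526 FPKM in DMSO and 4.89 FPKM in olaparib, 9.30-fold higher (q = 0.000284 by the authors' deposited table), or a log2 ratio of 1.95 with a pseudocount of 1 FPKM. In the second table it was at 4.98 FPKM in shCon cells and 3.00 FPKM in shFoxO1 cells, not called (q = 0.102 by the authors' deposited table). Of its receptors only LGR4 was tested. LGR4 rose from 2.37 to 4.45 FPKM with olaparib, 1.88-fold (q = 0.00101 by the authors' deposited table), and was at 4.53 and 4.50 FPKM in shCon and shFoxO1 cells, where the log2 ratio of -0.01 turned to 0.12 after quantile normalization. RNF43 was at 3.89 and 2.34 FPKM in the first table and at 2.38 and 3.79 FPKM in the second, and ZNRF3 at 5.70 and 4.52 FPKM and then at 4.59 and 5.06 FPKM, none of them called.

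Inside the cell, AXIN2, a scaffold that beta-catenin itself induces in many tissues, had the largest fall in shFoxO1 cells among the tested members. AXIN2 (ENSG00000168646, chromosome 17, 65528563 to 65561648) was at 2.74 FPKM in DMSO and 6.12 FPKM in olaparib, 2.23-fold higher (q = 0.000284 by the authors' deposited table). It was at 6.22 FPKM in shCon cells and 0.943 FPKM in shFoxO1 cells, 6.60-fold lower (q = 0.000244 by the authors' deposited table), the lowest of its levels. AXIN1, the constitutive scaffold, was at 30.4 FPKM in DMSO and 19.9 FPKM in olaparib, a log2 ratio of -0.61 (q = 0.00226 by the authors' deposited table) that shrank to -0.40 after quantile normalization. It was at 20.2 and 18.2 FPKM in shCon and shFoxO1 cells, not called. CTNNB1, which encodes beta-catenin and was the most abundant member, was at 115 FPKM in DMSO and 154 FPKM in olaparib, a log2 ratio of 0.42 (q = 0.0247 by the authors' deposited table). That ratio was 0.83 after quantile normalization, and the call is lost when every listed gene enters the adjustment (q = 0.101). In shCon and shFoxO1 cells CTNNB1 was at 157 and 160 FPKM, not called, and its log2 ratio of 0.03 turned to -0.27 after quantile normalization.

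Of the TCF/LEF factors, LEF1 held the larger part of the summed level, 65.4% in DMSO, 60.5% in olaparib and 69.3% in shFoxO1 cells. LEF1 was not called, at 27.3 and 22.6 FPKM in the first table and at 23 and 20.1 FPKM in the second. TCF7L2 was at 13.6 and 14.1 FPKM in DMSO and olaparib, and fell from 14.3 FPKM in shCon cells to 7.51 FPKM in shFoxO1 cells, 1.91-fold (q = 0.00106 by the authors' deposited table). TCF7L1, often a repressor, was tested only in the second table, at 0.505 and 1.09 FPKM, and was not called.

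Among 110 other genes of the pathway listed by role, 85 were tested in the olaparib table, with 18 called higher and 16 lower (21.2% and 18.8%, against 15.6% and 23.1% of all tested genes) and a median log2 ratio of 0.03. For shFoxO1, 87 were tested, with 17 called higher and 25 lower (19.5% and 28.7%, against 22.6% and 19.8%) and a median of -0.19. By role, 4 of 13 tested secreted and surface genes were called higher with olaparib and none lower, and 5 of 13 were called lower in shFoxO1 cells and none higher. Destruction complex and dishevelled genes had 6 higher and 5 lower of 25 with olaparib, and 5 higher and 4 lower of 25 in shFoxO1 cells. Nuclear partners had 3 higher and 5 lower of 23, and 7 higher and 6 lower of 23. Polarity and calcium branch genes had 5 higher and 6 lower of 24, and 5 higher and 10 lower of 26.

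The genes of these role lists called in both tables with at least 2-fold changes were APCDD1, ANKRD6, CXXC4, TLE2, NKD2 and CTNNBIP1. All of them were called higher with olaparib and lower with shFoxO1. Both ratios share the shCon olaparib group, and the share of all tested genes called this way in both tables was not computed. Other genes of these lists were called lower with olaparib and higher with shFoxO1, without 2-fold changes in both. These were CBY1, NLK, CSNK1A1, CSNK1E, RAC1, CELSR2 and DIXDC1. Values are given for CBY1, NLK and CSNK1A1 only, which fall outside the naming rule. CBY1 was at 12.1 and 7.07 FPKM in the first table and at 7.19 and 14.4 FPKM in the second. Its first call is lost when every listed gene enters the adjustment (q = 0.0503). NLK was at 8.07 and 4.51 FPKM and then at 4.59 and 17.9 FPKM. CSNK1A1, of the destruction complex list, was at 124 and 78.9 FPKM and then at 80.3 and 126 FPKM. The membrane-bound Wnt inhibitor APCDD1 was at 0.600 FPKM in DMSO and 3.55 FPKM in olaparib (q = 0.000284 by the authors' deposited table). In the second table it was at 3.61 FPKM in shCon cells and listed at 0 in shFoxO1 cells (q = 0.000244 by the authors' deposited table). NKD2, which binds dishevelled, was at 6.14 and 13.1 FPKM in the first table and at 13.3 and 2.80 FPKM in the second. TLE2, a Groucho corepressor of TCF factors, was at 17.4 and 36.4 FPKM and then at 37 and 7.34 FPKM. CTNNBIP1, which keeps beta-catenin from TCF factors, was at 6.06 and 13.4 FPKM and then at 13.6 and 4.93 FPKM. CXXC4, another dishevelled-binding inhibitor, was at 0.644 and 4.76 FPKM and then at 4.85 and 1.34 FPKM. ANKRD6, of the polarity and calcium branch list, was at 0.205 and 2.25 FPKM and then at 2.29 and 0.730 FPKM. The second ANKRD6 call (q = 0.0372 by the authors' deposited table) is lost when every listed gene enters the adjustment (q = 0.154).

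The receptors that take WNT5A outside the Frizzled family were named after their values were seen. ROR1 was at 12.1 FPKM in both DMSO and olaparib and fell from 12.3 to 2.96 FPKM in shFoxO1 cells, 4.15-fold (q = 0.000244 by the authors' deposited table). ROR2 rose from 0.110 to 1.95 FPKM with olaparib (q = 0.00123 by the authors' deposited table), and was at 1.98 FPKM in shCon cells and 0.0203 FPKM in shFoxO1 cells, not called (q = 0.314 by the authors' deposited table). RYK was not called in either table, at 21.5 and 18 FPKM and then at 18.3 and 24.3 FPKM.

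General target genes of beta-catenin were called in both directions in each table, more of them lower than higher with olaparib. This list held none of the members, so AXIN2 and DKK1, described above as induced by beta-catenin, are not in its counts. Of 22 tested in each table, 5 were called higher and 11 lower with olaparib, or 22.7% and 50%, against 15.6% and 23.1% of all tested genes. The median log2 ratio with olaparib was -0.35, beside -0.07 for all tested genes. In shFoxO1 cells 7 were called higher and 8 lower, or 31.8% and 36.4%, against 22.6% and 19.8% of all tested genes. The median there was 0.27 over the 20 genes with a ratio and 0.09 over all 22, with APCDD1 and MMP7, both called lower and listed at 0 in shFoxO1 cells, ranked lowest. For all tested genes the median with shFoxO1 was 0.01. CCND1, the cyclin D1 gene, was at 168 and 79.5 FPKM in DMSO and olaparib and at 80.8 and 255 FPKM in shCon and shFoxO1 cells, both called. These genes are known to answer to many other pathways too, whose part in these values was not tested. Several are immediate early or inflammatory genes, such as FOSL1, at 126 and 11.4 FPKM and then at 11.6 and 169 FPKM. CCND1 and FOSL1 were named after their values were seen, and AXIN2 and CCND1 were called in opposite directions in each table.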

How the data were processed

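RNA-seq of SUM159 cells was read from 2 deposited tables of 60595 genes. Libraries were strand-specific, paired-end and rRNA-depleted per the labels' protocols, and 2 sequencing providers are named without saying which libraries went to which. The submitters' processing notes list CASAVA 1.4, HISAT2 2.1.0, Cufflinks 2.2.1 and the build hg38 with no role for each. The authors deposited 1 FPKM value, a p-value, a q-value and a test status for each gene, per the file headers. FPKM depends on the authors' transcript lengths and on what else takes up reads. Recomputing Benjamini-Hochberg values from the deposited p-values over tested genes gave the deposited q-values to within 5.22e-07. The smallest p-value was 5e-05, held by 8 tested members with olaparib and 7 with shFoxO1, which cannot be ranked by p. Tested genes had at least 0.724 FPKM in the higher group of the first table and 0.868 FPKM in the second. Depth is unknown, and 0 columns held values of other samples.

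Log2 ratios were computed from FPKM with no pseudocount, in Python 3.11.15 with pandas 2.3.3 and numpy 2.4.6. The shCon olaparib group was 1.017 times as high in the table of the shFoxO1 comparison (median over 13688 genes of at least 1 FPKM), so levels across tables were divided by that factor and not tested. No model could be fitted to 1 value per group, and the authors' q-values were read instead. The adjustment and the quantile normalization were checked on simulated data. Members and lists were chosen with earlier results of these data known. The rule named every tested member, and other pathway genes called in both tables with at least 2-fold changes; the lists lack 6 symbols that the tables do not hold under that name (GPR124, TIKI1, TIKI2, AES, WISP1 and WISP2). Promoters and coordinates are from RefSeq, GRCh38.p14, matched by symbol. Alternatives were another q threshold, fold or level minimum, adjustment over every listed gene, pseudocounts and quantile normalization, and, added after seeing the data, leaving out members that share their listed region with another tested gene. In the adjustment over every listed gene, untested genes entered at the largest possible p-value, which raises the q of every tested gene.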

Additional observations from a re-analysis of the deposited data

How the results depend on the processing

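With olaparib, 8 members were called higher and 6 lower. With at least 2-fold changes required, the counts were 5 and 2 (background 8.53% and 9.74%). With shFoxO1 the counts of 4 higher and 7 lower became 2 and 5 (background 11.8% in each direction). The other pathway genes went from 18 higher and 16 lower to 11 and 4 with olaparib, and from 17 and 25 to 6 and 15 with shFoxO1. A q of at most 0.01, adjustment over every listed gene, a mean of at least 1 FPKM and leaving out members in shared regions kept these counts within 1.5 times. The members' median log2 ratio with olaparib, -0.11, became -0.0815 with a pseudocount of 1, 0.12 after quantile normalization, and -0.0313 both over every member above 0 and over members alone in their region. With shFoxO1, -0.08 became -0.0633, -0.0176, -0.0248 and -0.17 in the same order, and -0.14 with a mean of at least 1 FPKM. Of the 55 ratios of tested members, 4 changed sign after quantile normalization, none of them called: WLS with olaparib (0.13), and CTNNB1 (-0.27), FZD5 (0.15) and LGR4 (0.12) with shFoxO1. Adjustment over every listed gene ended 4 calls of members, those of WNT11 in each table, CTNNB1 with olaparib and LRP6 with shFoxO1. The cause was not tested. No paired analysis was possible because each group has 1 value, and for the same reason no library could be left out.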
